A study of Mus musculus with 2 samples.

Results

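Epithelial cells hold together through cadherins, and a small set of transcription factors can switch those cadherins off while mesenchymal genes come on, a change known as epithelial-mesenchymal transition (EMT). Described here are 10 genes of that system, chosen by symbol: the cadherins Cdh1, Cdh2 and Cdh3, the intermediate filament gene Vim, the matrix gene Fn1, and the transcription factors Zeb1, Zeb2, Snai1, Snai2 and Twist1. Through the platform's probe-gene table, 8 of the 10 had a probe, 16 probes in all, out of 16593 genes measured. Fn1, which encodes fibronectin, and Snai2, which encodes the Slug repressor, had no probe named for them and were not analysed here.

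E-cadherin, the product of Cdh1, joins neighbouring epithelial cells by binding itself outside the cell and, through catenins, the actin cytoskeleton inside. SNAIL, ZEB and TWIST proteins are known to lower Cdh1, the SNAIL and ZEB families by binding short DNA elements called E-boxes in its promoter, and cells that lose E-cadherin in this way often gain N-cadherin (Cdh2), vimentin and fibronectin. In the tooth, the epithelium carries E-cadherin and P-cadherin, while the mesenchyme next to it carries vimentin.

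The RNA came from dental epithelial stem cells, the progenitors in the labial cervical loop of the mouse incisor, grown for 7 days without passage in medium with EGF and FGF. The control mice were Med1 fl/fl and the knockout mice Med1 fl/fl with Krt14 driven Cre, littermates aged 3 months on a C57/BL6 background, so that both groups carried the floxed allele of Med1, a subunit of the Mediator complex. Cre under the keratin 14 promoter acts in epithelium that expresses keratin 14, and mesenchymal cells are not its target. Cells of 3 mice stood behind each genotype, and each genotype had 1 Illumina bead array; whether the RNA was pooled is not stated outright. Every value is therefore a single measurement, with no test between genotypes, no standard deviation over animals and no p-value, and the number of arrays limits the precision.

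The arrays were alike in brightness, with 43.1% of 25697 probes detected in the control and 42.6% in the knockout at a detection p-value under 0.01, the share of negative control beads as bright as the probe. The brightest probe for Med1 gave 9.52 in the control and 8.03 in the knockout (log2 intensity), and a second, dimmer probe detected on both arrays gave 6.84 and 6.56, a difference under the between-probe standard deviation given next. The place of these probes relative to the deleted part was not given here. All 7 measured markers of basal keratinocytes were detected on both arrays. Over 1830 genes with several detected probes, the difference between the arrays varied between probes of 1 gene with a standard deviation of 0.31, the only error that these data allow, and it is technical. Levels are log2 intensities after background correction and quantile normalization, a difference is knockout minus control, and a gene counts as higher or lower when it differs by at least 2-fold and is detected on at least 1 array.

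The promoters of 4 of the 10 genes (Vim, Zeb2, Snai1 and Twist1) were in the RefSeq promoter table. Those of Vim, Snai1 and Twist1 are shown because these genes were higher, or were detected only, on the knockout array. Each is the 250 bases before the annotated start, on the plus strand of GRCm38.p6: chr2:13574061-13574310 for Vim, chr2:167537945-167538194 for Snai1 and chr12:33957421-33957670 for Twist1. Capitals mark the E-box CACCTG and the TATA element TATAAA, each searched on both strands.
Vim: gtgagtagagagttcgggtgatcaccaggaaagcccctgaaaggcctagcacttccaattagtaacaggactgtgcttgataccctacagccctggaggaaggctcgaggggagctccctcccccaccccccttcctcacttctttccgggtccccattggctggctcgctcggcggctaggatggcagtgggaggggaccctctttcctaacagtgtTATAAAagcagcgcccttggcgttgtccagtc
Snai1: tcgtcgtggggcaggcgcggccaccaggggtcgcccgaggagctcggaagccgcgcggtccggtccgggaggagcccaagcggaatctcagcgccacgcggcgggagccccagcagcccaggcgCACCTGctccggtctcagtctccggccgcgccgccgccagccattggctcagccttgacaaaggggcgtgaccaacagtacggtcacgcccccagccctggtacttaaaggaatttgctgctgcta
Twist1: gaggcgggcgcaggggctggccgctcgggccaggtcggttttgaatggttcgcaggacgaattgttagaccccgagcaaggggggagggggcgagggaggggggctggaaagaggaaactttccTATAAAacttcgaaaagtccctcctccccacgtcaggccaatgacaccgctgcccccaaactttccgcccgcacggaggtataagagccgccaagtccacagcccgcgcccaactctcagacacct

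The Snai1 window held 1 E-box, which starts 126 bases before the start of the gene. The Vim, Twist1 and 4 Zeb2 windows held none, nor any CANNTG, the general form that includes this E-box. Of all 32851 windows of that length in the table, 17.2% held this E-box on either strand and 66.2% a CANNTG. The Vim window held TATAAA 32 bases before the start and the Twist1 window 126 bases before it, and 12.4% of all windows held that element in either direction. Snai1 had the highest GC content of the 3, 70.0%, against 62.4% for Twist1, 58.4% for Vim and a median of 52.4% over all windows. A match of letters is a description of the window and not a bound site.

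The epithelial cadherins were bright on both arrays and differed little. Cdh1, read by 1 probe, gave a signal of 4948 in the control and 5379 in the knockout, brighter than 96.0% and 96.2% of all probes. On the normalized scale its levels were 12.25 and 12.33, a difference of 0.09 or 1.06-fold. This is well under the between-probe standard deviation of 0.31. Cdh3, which encodes P-cadherin, the cadherin of basal epithelial layers, was read by 4 probes, all detected on both arrays. The brightest gave signals of 2825 and 2778, and normalized levels of 11.36 and 11.37, a difference of 0.01. The other probes differed by -0.01 (signals of 1072 and 1007), by 0.28 (535 and 593) and by -0.20 (258 and 244). The 4 Cdh3 probes thus gave differences on either side of 0, each smaller than the between-probe standard deviation.

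Cdh2, which encodes N-cadherin, the cadherin of neural and mesenchymal cells, was not detected by any of its 4 probes on either array. Their signals were between 157 and 194 in the control and between 165 and 190 in the knockout, where the lowest detected signals were 237 and 241. Of the Cdh2 probes, 3 were brighter and 1 dimmer on the knockout array before normalization. At this signal no direction can be read, and no fold is given.

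Vim differed most among the members detected on both arrays. Vimentin is the intermediate filament protein of mesenchymal cells, and epithelial cells can also make it in culture. Its single probe gave a signal of 1112 in the control and 2274 in the knockout, a ratio of 2.04 before any correction. Normalized levels were 9.86 and 11.07, a difference of 1.21 or 2.32-fold. It stayed past 2-fold without background correction (1.09) and in the deposited value table (1.09). The difference is several times the between-probe standard deviation, and 6.54% of the 8217 genes detected on at least 1 array had a larger positive one. Of the 7272 genes detected on both arrays, 5.53% were higher in the knockout by 2-fold or more and 4.11% lower.

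**Figure D1:**
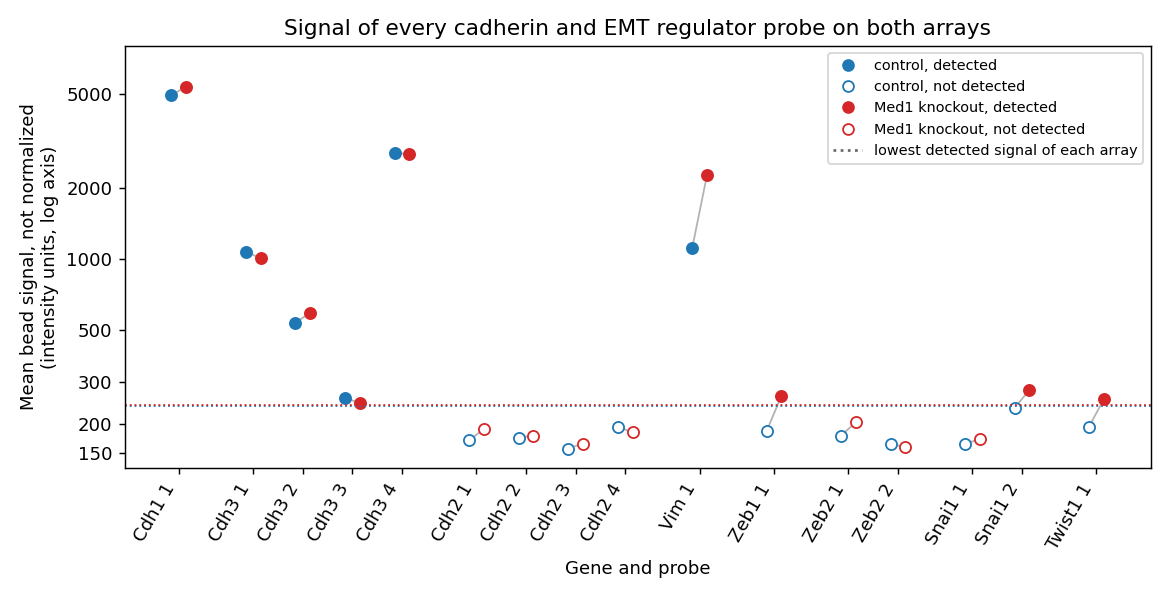
Mean bead signal before normalization (intensity units, log axis) of each of the 16 probes on the control array (blue) and the Med1 knockout array (red), joined by a grey line; filled points were detected at a p-value under 0.01, and dotted lines are the lowest detected signals, 237 and 241. Cdh1 and Cdh3 pairs lie almost level, Vim goes from 1112 to 2274, all Cdh2 and Zeb2 points are open, and Zeb1, 1 Snai1 probe and Twist1 are open on the control array and filled on the knockout array.

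Of the transcription factors, 3 of the 4 with a probe were detected on the knockout array and not on the control array, all close to the detection limit. Zeb1, a zinc finger and homeodomain repressor of Cdh1, gave signals of 186 in the control and 263 in the knockout. Its detection p-values were 0.183 and 0.00125. Since these p-values move in steps of 1 in 798, that is 146 steps on the control array and 1 step on the knockout array. Twist1, a basic helix-loop-helix factor of cranial and dental mesenchyme, gave 194 and 255, with p-values of 0.123 (98 steps) and 0.00125 (1 step). Both genes lay below the limit on the control array and just above it on the knockout array.

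Snai1, the SNAIL repressor of Cdh1, was read by 2 probes. The brighter gave 234 and 278, with detection p-values of 0.0125 and 0, so that on the control array it missed the limit narrowly; at a limit of 0.05 it was detected on both arrays. The other Snai1 probe was not detected on either array (164 and 172). Zeb2, the close relative of Zeb1, was not detected by either of its 2 probes, at 178 and 165 in the control and 203 and 159 in the knockout. Its brighter probe reached a detection p-value of 0.0877 on the knockout array.

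For a gene not detected on the control array, the fold is given as a lower bound, the knockout value over 6.30, the dimmest detected level of the control array (each of the 3 control values was below it). It is a bound only on the background-corrected scale, which widens the differences of dim probes, and it can exceed the fold of the uncorrected signals. On that scale Snai1 was at least 1.53-fold higher in the knockout (the ratio of its signals before any correction was 1.19), Zeb1 at least 1.33-fold and Twist1 at least 1.23-fold. The measured normalized levels were 5.21 and 6.72 for Zeb1, a difference of 1.51, 5.39 and 6.60 for Twist1, a difference of 1.22, and 6.25 and 6.92 for Snai1, a difference of 0.67. Without background correction the same differences were 0.49 for Zeb1, 0.39 for Twist1 and 0.25 for Snai1, so the size rests on how background is taken off. Among the 439 genes detected on the knockout array only, 286 had a larger bound than Zeb1, 327 than Twist1 and 228 than Snai1. All 3 bounds (0.62, 0.42 and 0.30 on the log2 scale for Snai1, Zeb1 and Twist1) were under the median of that set, 0.66.

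Counted together, 6 of the 8 members with a probe were detected on at least 1 array, 3 on both (88.5% of all genes so detected were seen on both) and 3 on the knockout array only. By measured difference 3 of the 6 (Vim, Zeb1 and Twist1) were at least 2-fold higher and 0 lower, where 8.35% of all detected genes were higher and 6.52% lower. Zeb1 and Twist1 entered through detection on the knockout array only, which favours a positive difference. Of the 439 genes so detected, 64.7% were at least 2-fold higher by measured difference, with a median of 1.36. With lower bounds, Vim was the 1 of the 3 that remained, against 6.86% of all detected genes higher and 4.98% lower. The median difference of the 6 was 0.94, or 0.36 with bounds, against -0.06 for all detected genes with and without bounds. Detection on the knockout array only was seen for 5.34% of detected genes and on the control array only for 6.16%. Before normalization 11 of the 16 probes were brighter on the knockout array, as were 50.2% of all probes. The 11 include probes of Cdh2, Zeb2 and Snai1 detected on neither array, where no direction can be read. They also include the probes of Zeb1, Twist1 and Snai1 detected on the knockout array only, so the count is not read as a result. Among the 6 probes detected on both arrays, those of Cdh1 and Vim and 1 of 4 for Cdh3 were brighter on the knockout array. The 9 detected probes include 4 of a single gene, Cdh3.

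**Figure D2:**
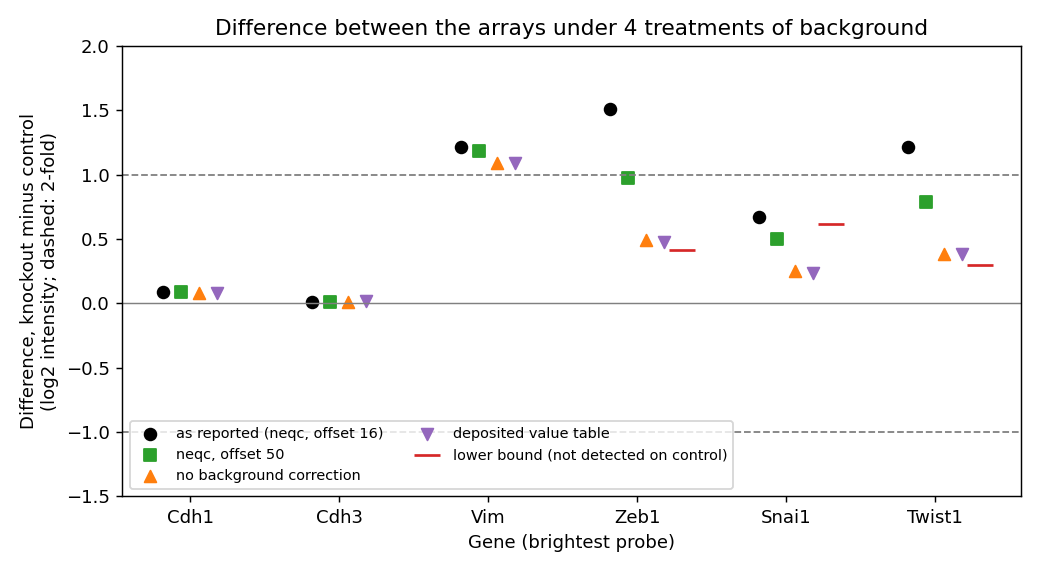
Difference between the arrays (knockout minus control, log2 intensity) of the brightest probe of each of the 6 detected members, with background corrected at an offset of 16 (circles) or 50 (squares), without background correction (upward triangles) and in the deposited value table (downward triangles); red bars are lower bounds and dashed lines mark 2-fold. Vim lies above 1 under each, between 1.09 and 1.21, Cdh1 and Cdh3 stay near 0, and Zeb1, Snai1 and Twist1 move with the treatment of background, Zeb1 between 0.48 and 1.51.

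Among genes for proteins that join cadherins to the cytoskeleton or act beside them at the junction, most detected ones differed by under 2-fold. The exceptions were Jup and Nectin4. Of 10 measured catenin, nectin and plaque genes 8 were detected, all on both arrays, with 2 higher, 0 lower and a median difference of 0.09. Of all genes detected on both arrays 5.53% were higher and 4.11% lower. Jup, which encodes plakoglobin, the catenin shared with desmosomes, went from 6.64 on the control array to 9.04 on the knockout array, a difference of 2.40 (1.41 without background correction). Nectin4, an adhesion receptor of stratified epithelium, went from 6.36 to 8.16, a difference of 1.80, which was 0.89 and under 2-fold without background correction. On the control array Nectin4 (signal 240) and Jup (259) lay close to the lowest detected signal, 237. Nectin1 (-0.48) and Nectin2 (0.45) differed by under 2-fold. Of the other catenin genes, Ctnna1 (-0.02) and Ctnnb1 (-0.05), added here after their values were seen, differed little. Ctnnd1, also added, was not detected on either array. Of 7 other classical and type II cadherins measured, only Cdh13, the membrane-anchored T-cadherin, was detected, at 9.59 and 10.22, a difference of 0.63. Cdh5 and Cdh11, the cadherins of endothelium and mesenchyme, added here, were not detected.

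Genes that mark or maintain the epithelial state were almost all detected, and most differed by under 2-fold, as did most of all detected genes. Of 15 measured, 14 were detected, of which 1 was higher and 1 lower. Over all detected genes 8.35% were higher and 6.52% lower, so these counts set the list apart in neither direction. The median difference was -0.33. Detected probes of 1 gene disagreed for Elf5 (-0.57 to 1.85) and Ovol2 (-1.54 to -0.37), both added here. With the mean of detected probes in place of the brightest probe, 2 genes were higher and 2 lower. Esrp2, a splicing factor that keeps epithelial isoforms, was higher, at 8.86 and 9.97 (difference 1.11), and the tight junction gene Cldn7 was lower, at 8.36 and 7.35 (difference -1.01). Without background correction neither reached 2-fold (0.90 and -0.60). The membrane protease Prss8 (0.98) and the vesicle gene Rab25 (0.74) differed by under 2-fold. Of the 7 basal keratinocyte markers, 2 were lower and 0 higher, and the median difference was -0.42. They were the integrin subunit gene Itga6 (10.13 and 8.05, difference -2.09) and Krt5 (14.46 and 13.24, difference -1.22), ahead of Lamb3 (-0.55) and Itgb4 (-0.42).

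Of 10 other transcription factors known to drive EMT that were measured, 5 were detected, 3 of them on the control array only. Of all detected genes 6.16% were detected on the control array only. Detection on that array only favours a negative difference, so the sign of those 3 is not a separate result. The 5 differences, all negative, had a median of -0.56, or -0.42 with bounds. Detected on both arrays were Tcf4 and Foxc1 (-0.24, under the between-probe standard deviation), the latter added here. By measured difference 1 was at least 2-fold lower, Foxc2, a forkhead factor, at 6.93 and 5.13 (at least 1.48-fold lower by its bound, and -0.61 without background correction). Tcf4, which encodes the E-protein partner of TWIST factors, was at 12.50 and 11.80 (-0.70). On the corrected scale Sox4 was at least 1.06-fold lower and Snai3, another SNAIL family gene, at least 1.34-fold lower. Without background correction Sox4 was 1.13-fold and Snai3 1.14-fold lower. Twist2, the close relative of Twist1, added here, was not detected. The corepressors that SNAIL and ZEB proteins recruit differed by under 2-fold in all 7 detected cases of 8 measured, with a median of -0.16. Most of all detected genes also differed by under 2-fold (8.35% were higher and 6.52% lower). The largest differences were those of the Polycomb methyltransferase gene Ezh2 (-0.61), the demethylase gene Kdm1a (-0.50), Hdac1 (-0.33) and Suz12 (-0.16).

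Of 8 receptor genes that bind fibronectin or act beside cadherins, 5 were detected and none passed 2-fold, with a median of -0.23. Over all detected genes 8.35% were higher and 6.52% lower. The detected receptor genes included the syndecan gene Sdc4 (-0.78), both chains of the main fibronectin receptor, Itga5 (-0.33) and Itgb1 (-0.23), and Itgav (0.21). Among genes of the TGF-beta pathway, the best known inducer of EMT, all 10 measured were detected, with 1 higher, 1 lower and a median of -0.33. The ligand genes differed in direction: Tgfb2 went from 6.91 to 8.54 (difference 1.62, and 0.93 without background correction), Tgfb3 from 9.84 to 8.03 (-1.81) and Tgfb1 from 9.98 to 9.09 (-0.89). Skil, a feedback inhibitor of SMAD proteins, differed by -0.88.

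Effector and mesenchymal state genes were higher on the knockout array more often than they were lower. Of 16 measured, 14 were detected, with 6 higher and 1 lower, or 4 and 1 with bounds. The median difference was 0.98, or 0.66 with bounds. Over all detected genes 8.35% were higher and 6.52% lower, or 6.86% and 4.98% with bounds. Of the 14, 5 were detected on the knockout array only and 0 on the control array only, against 5.34% and 6.16% of all detected genes. Detection on the knockout array only favours a positive difference, so part of the count follows from the detection rule. Mmp2, a gelatinase, went from 7.88 to 11.22, a difference of 3.34. Col1a1, the main chain of type I collagen, was at least 8.82-fold higher on the corrected scale, the collagen crosslinker gene Loxl2 at least 4.39-fold and Col3a1 at least 1.66-fold. The uncorrected values of the 3 genes were 4.42-fold, 2.13-fold and 1.81-fold. The 1 lower gene was Tnc, which encodes tenascin C, at 13.23 and 12.15 (-1.08), added here.

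Those markers of mesenchymal cells that were detected were mostly higher in the knockout as well. Among 13 with a probe, 7 were detected, 6 passed 2-fold upward (5 with bounds) and 0 downward, and 5 were detected on the knockout array only. Of all detected genes 8.35% were higher (6.86% with bounds) and 6.52% lower (4.98% with bounds). Detection on the knockout array only was seen for 5.34% of them. The median difference of the 7 was 3.34, or 2.84 with bounds. Of the 7, 5 were kept through detection on the knockout array only, which favours a positive difference. Part of the count and of the median thus follows from the detection rule. The other 6 markers with a probe were not detected on either array. Summed normalized intensity of the 7 was 10597 in the control and 20627 in the knockout, most of it Sparc, and 418 and 5300 without Sparc. The control sums hold background values of the 5 genes not detected there, and detection on the knockout array selected those genes, so no fold is read from the sums. They were led by Thy1, a surface marker of fibroblasts (at least 15.7-fold), Col1a1, Lum, a proteoglycan gene (at least 7.14-fold), and Mmp2. Without background correction Thy1 was 7.42-fold and Lum 3.73-fold higher. Col1a1, Mmp2, Col3a1 and Sparc are also in the effector list. Of the defining markers, Pdgfra, Pdgfrb, Col1a2 and Prrx1, added here, were not detected on either array. Markers of endothelium (2 of 7 detected, with 5 defining ones such as Pecam1 and Cdh5 not detected), of immune cells (1 of 5, Ptprc not detected) and of Schwann cells and melanocytes (1 of 4) were few. The endothelial genes were Flt1 (at least 1.82-fold higher on the corrected scale, 1.65-fold without background correction) and Egfl7 (0.80). The immune gene was Coro1a (at least 1.49-fold higher on the corrected scale, 1.38-fold without background correction). The Schwann cell gene was Mbp, which encodes a myelin protein (8.06 and 10.10, difference 2.04). The sex-linked genes also differed: Xist was at least 37.9-fold higher in the knockout, and all 4 measured Y-linked genes had a negative difference (Usp9y at least 3.74-fold lower, Eif2s3y at -1.60). Without background correction Xist was 18.5-fold higher and Usp9y 3.15-fold lower. The part of mesenchymal cells and of the animals' sex in the values of Vim, Zeb1, Snai1 and Twist1 was not tested. In bulk RNA, more cells of a type and more RNA per cell cannot be told apart.

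**Figure D3:**
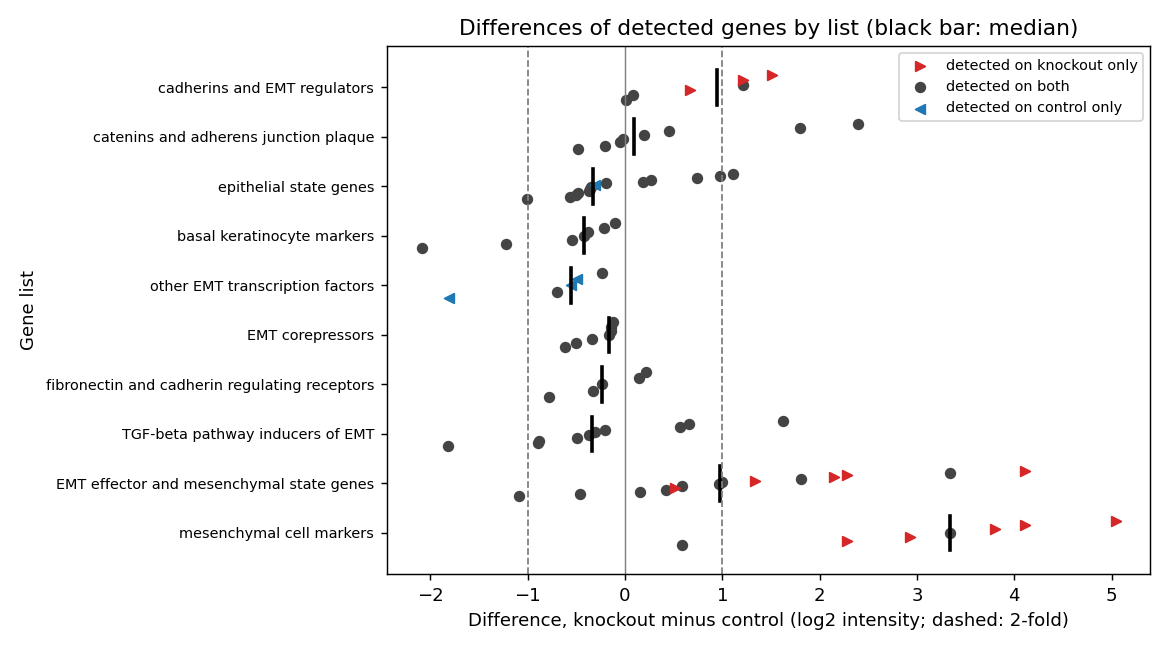
Difference between the arrays (knockout minus control, log2 intensity) of each detected gene in 10 lists; grey circles were detected on both arrays, red triangles on the knockout array only and blue triangles on the control array only, black bars are medians and dashed lines mark 2-fold. The medians lie between -0.56 and 0.09 for the catenin and plaque, epithelial state, basal keratinocyte, other transcription factor, corepressor, receptor and TGF-beta lists, at 0.94 for the cadherins and EMT regulators, at 0.98 for effector genes and at 3.34 for mesenchymal cell markers. With lower bounds, which are not drawn, the medians were 0.36 for the cadherins and EMT regulators, 0.66 for effector genes and 2.84 for mesenchymal cell markers.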

How the data were processed

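Per the file headers, the deposited non-normalized file gives each of 25697 probes a linear bead signal intensity and a detection p-value; the lowest signals were 133 and 139. The submitters' processing notes list GenomeStudio 2011.1. A deposited matrix gives processed intensity for these probes, both columns sharing 1 distribution, by a method that no source here names. Background was removed with the normexp model (negative controls estimated through the detection p-values), 16 was added as offset, and log2 values were quantile normalized with neqc (limma 3.58.1, R 4.3.3). Of the probes, 23978 had 1 gene symbol, 0 had several and 1719 were unnamed here; symbols were updated through the gene identifier, found for 23962 in the mouse gene table. The brightest probe by mean over both arrays represented a gene. With 1 array per genotype no test was run. The procedure was tested on simulated data in which only probes well above background were changed. That simulation does not bear on genes near the detection limit. Named genes are all 10 members, up to 4 detected genes of each list with the largest absolute difference, and those said to be added. The members and lists were chosen with earlier results of these data known. Alternatives changed the background correction, offset, normalization, source of values, detection limit, probe rule and fold.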

Additional observations from a re-analysis of the deposited data

How the results depend on the processing

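The differences of Cdh1, Cdh3 and Vim moved by less than 0.31 under all 8 alternatives for levels, with Vim between 1.09 and 1.21; Cdh3 was -0.03 without normalization between arrays. Without background correction Zeb1 was 0.49, Snai1 0.25 and Twist1 0.39, while the deposited values gave 0.48, 0.24 and 0.38. With normexp on the signal alone Zeb1 was 0.85 and Twist1 0.66, and with an offset of 50 they were 0.97 and 0.79. In these 4 settings, and with lower bounds, 1 member was at least 2-fold higher in place of 3; at 3-fold it was 0. Over all genes, 686 were higher and 536 lower as reported, 340 and 207 without background correction, 344 and 211 by the deposited values, 1203 and 1345 at 1.5-fold, 365 and 204 at 3-fold, and 325 lower with normexp on the signal alone. Without normalization between arrays the median of all detected genes was -0.11. Of 280 list counts under alternatives, 243 stayed within 1.5 times. Many of these were counts of 0 that stayed 0, so the 243 is not a measure of robustness. No paired analysis was possible because each genotype has 1 array. The lowest detected signals, 237 and 241, bound what can be said of Zeb1, Snai1, Twist1, Zeb2 and Cdh2.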
